A study of Homo sapiens with 41 samples.

Results

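A microRNA host lncRNA is a long noncoding transcript whose gene carries the hairpin of at least 1 microRNA in an exon or an intron. The hosts described here, CARMN, MIR22HG, MIR17HG, MIR31HG, MIR100HG, MIR99AHG, MIR210HG and MIR4435-2HG, were chosen by name from the gene counts of a serum response time course. They are 8 of the 58721 genes counted, and all 8 passed the filter on low counts, which left 21629 genes, 3508 of them lncRNAs. The cells were T98G, a human glioblastoma line that stops dividing without serum and starts again when serum is given back. For each time point cells were seeded, left for 24 h, kept without serum for 72 h and then given medium with 20% fetal calf serum. The starved cells before serum are the 0 min point, and cells were lysed every 10 min up to 400 min, which gave 41 libraries of total RNA depleted of rRNA, 1 per time point. Every library therefore came from the 1 cell line and shared the starvation, and each comparison is with the start of the same course.

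The host transcript is where a microRNA begins. Drosha and its partner DGCR8 cut the hairpin out of it in the nucleus, exportin-5 carries the hairpin to the cytoplasm, Dicer trims it to a duplex, and an Argonaute protein keeps the mature strand, which finds its targets largely through its seed, bases 2 to 8. Some hosts are spliced into stable lncRNAs with functions of their own, and the level of a host need not follow that of its mature microRNAs. These libraries measured host RNA and reads over the hairpins, not mature microRNAs.

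The guide strands of the hosted microRNAs are shown because the hosts fall into seed families that cross between genes. The sequences are the RefSeq mature forms on GRCh38.p14, found for all 18 hairpins of the 8 hosts, and the capitals mark the seed. MIR100HG and MIR99AHG each carry 1 member of the same 3 seed families, MIR17HG carries members that repeat within its own cluster, and the seeds of the other hosts occur in 1 listed hairpin each. miR-100 and miR-99a differ by A16U and let-7a and let-7c by A19G, with positions counted from 1 at the 5′ end of the form named first, and the miR-125b of both hosts is the same sequence. miR-17 and miR-20a differ by C1U and C12U and share their seed, whereas A4G puts a different base in the seed of miR-18a. miR-19a and miR-19b differ by U11C.
hsa-miR-143-3p (CARMN): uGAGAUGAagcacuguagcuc
hsa-miR-145-5p (CARMN): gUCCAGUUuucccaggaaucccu
hsa-miR-22-3p (MIR22HG): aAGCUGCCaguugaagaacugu
hsa-miR-17-5p (MIR17HG): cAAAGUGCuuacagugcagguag
hsa-miR-20a-5p (MIR17HG): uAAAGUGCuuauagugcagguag
hsa-miR-18a-5p (MIR17HG): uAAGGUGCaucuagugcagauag
hsa-miR-19a-3p (MIR17HG): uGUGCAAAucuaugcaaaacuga
hsa-miR-19b-3p (MIR17HG): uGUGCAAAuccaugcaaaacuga
hsa-miR-92a-3p (MIR17HG): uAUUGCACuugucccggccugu
hsa-miR-31-5p (MIR31HG): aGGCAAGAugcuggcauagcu
hsa-miR-100-5p (MIR100HG): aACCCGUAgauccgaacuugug
hsa-miR-99a-5p (MIR99AHG): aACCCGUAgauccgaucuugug
hsa-let-7a-5p (MIR100HG): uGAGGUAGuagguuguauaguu
hsa-let-7c-5p (MIR99AHG): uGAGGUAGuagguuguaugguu
hsa-miR-125b-5p (MIR100HG and MIR99AHG): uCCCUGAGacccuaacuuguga
hsa-miR-210-3p (MIR210HG): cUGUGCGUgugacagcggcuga
hsa-miR-4435 (MIR4435-2HG): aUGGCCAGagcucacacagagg

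Libraries held between 18206982 (20 min) and 64948114 counts (70 min), with a median of 41773419, and values below are normalized counts, that is counts divided by the size factor of the library. Such counts are not per length, so the levels of different genes are not compared. Where blocks of libraries are quoted for a host, their limits differ from host to host and follow the counts. A lack of overlap between blocks is thus a description and not a test. Of 5 mesenchymal markers, FN1, VIM, TNC and CD44 had medians of 135288, 50281, 29263 and 24812 normalized counts and NES one of 37.4. Of 5 astrocyte and glioma stem cell markers, OLIG2 had a median of 33.6, GFAP of 1.48 and S100B of 1.06, and SOX2 and AQP4 were at 0 in 33 and 39 libraries. The endothelial marker list summed to between 24.0 and 51.6 in a library, and the smooth muscle list, which matters for CARMN, to between 67.4 and 144.6, of which ACTA2 held 58.1 to 123 and MYH11 at most 8.30. Among leukocyte markers CD68 had a median of 1723, PTPRC of 3.06 and CD3E of 0. Among epithelial ones KRT8 had 275, EPCAM 11.5 and CDH1 0, and among neuronal ones SNAP25 had 561, SYT1 5.67 and RBFOX3 0. The counts of every gene were modelled in edgeR as a smooth curve over time (a natural cubic spline). Errors of log2 changes are its standard errors (SE), which come from the scatter of neighboring libraries about the curve because no time point has a replicate. A gene was called higher or lower at a Benjamini–Hochberg adjusted p below 0.01 over all genes tested.

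All 8 hosts changed over the course, and by 400 min 6 were higher and 2 lower than at 0 min. CARMN and MIR22HG responded first, MIR17HG was higher from 60 min on after its lowest counts at 30 and 40 min, MIR100HG and MIR4435-2HG had their highest counts at the end, MIR31HG was called last, and MIR210HG and MIR99AHG went down. At 30 min 2 hosts were higher, CARMN and MIR22HG, where 1.71% of all genes tested were, and 0 were lower in edgeR, where 0.342% of all genes were. At that time 2 hosts, MIR17HG and MIR99AHG, had a negative change at an unadjusted p below 0.05, and DESeq2 called 1 of them, MIR17HG. At 60 min 4 were higher (CARMN, MIR22HG, MIR17HG and MIR4435-2HG) against 5.15% of all genes. None was lower in edgeR or DESeq2, against 1.23% of all genes, while MIR99AHG and MIR210HG were negative at an unadjusted p below 0.05. At 120 min 5 were higher, MIR100HG having joined, against 13.6%, and 2 were lower (MIR210HG and MIR99AHG) against 6.75%. At 240 min MIR31HG had joined as well, so that 6 were higher against 21.6% and 2 lower against 18.5%. The same split of 6 and 2 held at 400 min, against 24.2% and 22.4%, and among lncRNAs alone 8.64% were higher and 24.8% lower at that time. Between 120 and 400 min 4 hosts went on rising (MIR31HG, MIR17HG, MIR4435-2HG and MIR100HG) against 23.8% of all genes, and 3 fell (CARMN, MIR210HG and MIR99AHG) against 24.1%. The test of all spline terms together called 8 of 8, with adjusted p from 1.2e-15 (MIR99AHG) to 1.8e-37 (CARMN) in edgeR, where 75.5% of all genes passed. Autocorrelation at a lag of 1 library, the measure the study used to find responding genes, was between 0.71 (MIR99AHG) and 0.93 (CARMN), and 8 of 8 passed the Ljung–Box test, where 60.9% of all genes did.

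**Figure D1:**
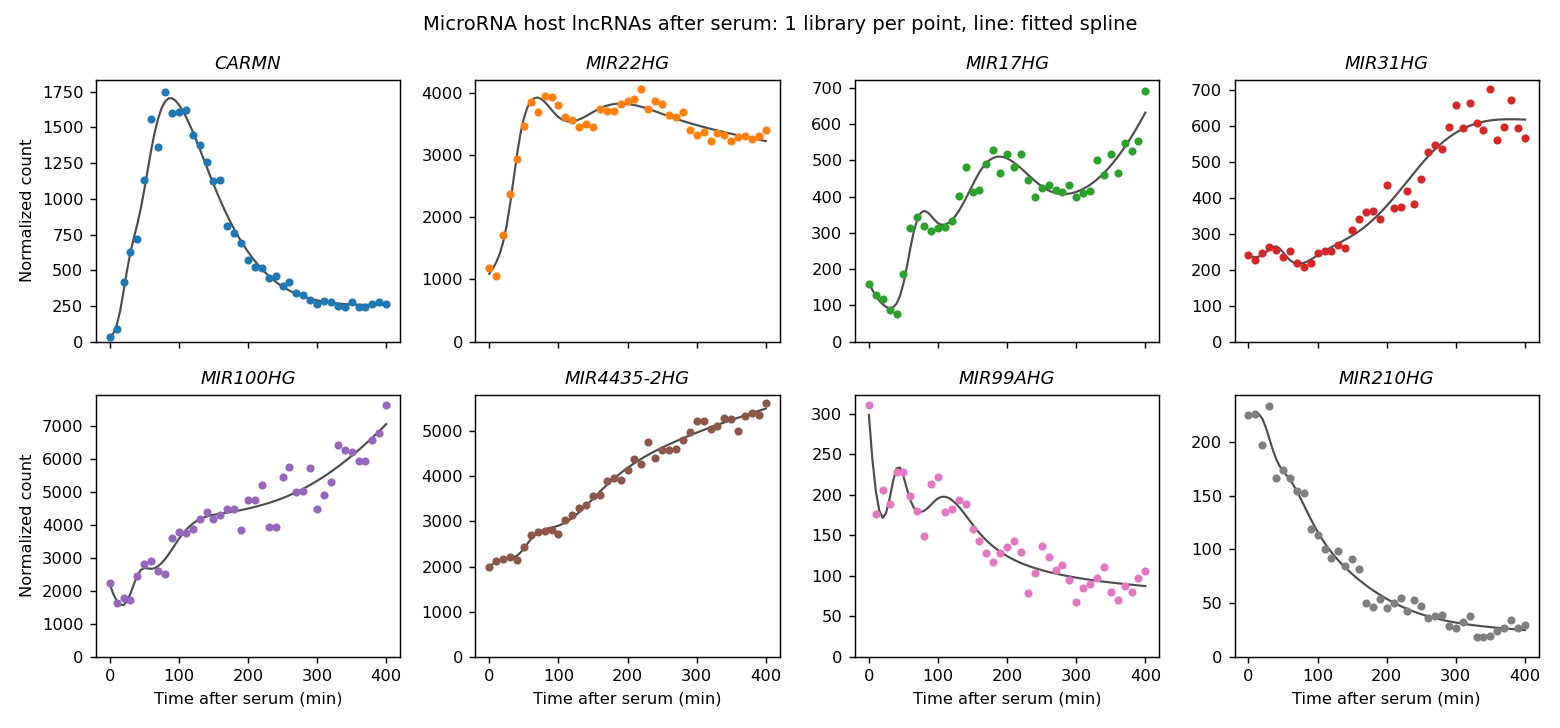
Normalized count (linear axes from 0) of each host lncRNA against time after serum (min), with 1 point per library and the fitted spline as a line. CARMN peaks at 80 min and returns to 262 by 400 min, MIR22HG stays at 3224 or more from 50 min on, and MIR99AHG and MIR210HG run downward.

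CARMN, the host of miR-143 and miR-145 and best known from smooth muscle and heart, had the largest fitted change of the 8 at each of the times compared with 0 min, although at 400 min its lead was small and did not hold in every fit. Its normalized count was 34.2, 85.5, 419 and 627 in the libraries of 0, 10, 20 and 30 min. In the 7 libraries from 60 to 120 min it lay between 1362 and 1748, with a median of 1601 and the highest count at 80 min. It then declined through the middle of the course to between 239.9 and 285 (median 267) in the 11 libraries from 300 to 400 min. The late level thus stayed above that of the first 2 libraries, without overlap. The log2 change was 4.54 (SE 0.24) after 30 min, 5.63 (SE 0.20) after 60 min and 5.77 (SE 0.20) after 120 min. It was 3.25 (SE 0.22) at 400 min and −2.52 (SE 0.09) from 120 to 400 min, each of the 5 with an adjusted p of 5.2e-17 or less in edgeR. The running mean of 3 libraries passed the midpoint of the rise at 41.9 min (37.8 to 44.7 when 1 library was left out) and fell back through it at 171 min. Without the 0 min library, when the curve is carried back from 10 min, the changes at 30 and 400 min were 5.54 and 4.16. With evenly spaced knots, which leave fewer of them in the first hour, they were smaller, 2.66 at 30 min, 2.53 at 240 min and 1.94 at 400 min, all still called, and at 400 min MIR17HG (2.53), MIR100HG (1.98) and MIR210HG (−2.89) then had larger changes than CARMN.

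MIR22HG, the host of miR-22 and a transcript known to respond to cell stress, rose in the same hour but did not come back to its starting level. It had 1176, 1049, 1716 and 2378 normalized counts in the libraries of 0, 10, 20 and 30 min. All 36 libraries from 50 min on lay between 3224 and 4055, with a median of 3605 and the highest count at 220 min. They did not overlap with the first 2 libraries. Its log2 change was 1.02 (SE 0.10) after 30 min and 1.82 (SE 0.09) after 60 min, and it was still 1.70 (SE 0.09) and 1.56 (SE 0.09) at 120 and 400 min, each called by edgeR with an adjusted p of 2.8e-11 or less. From 120 to 400 min it moved by −0.14 (SE 0.05, adjusted p = 0.03 in edgeR), which missed the threshold. This fall was called with 5 degrees of freedom (−0.27), without the 0 min library (−0.12) and without the 10 min library (−0.13). The other fits did not call it at that threshold. The 12 libraries from 290 to 400 min lay between 3224 and 3393. The 23 from 60 to 280 min lay between 3442 and 4055. The cut between these blocks follows the counts, so it does not test the fall. The midpoint of its rise came at 34.0 min (31.6 to 37.3). With size factors from the spike-ins the change at 30 min was 0.88 and no longer called, and without the 0 min library it was 2.04, with 2.60 at 120 min and 2.48 at 400 min.

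The promoter windows of these early risers are shown with those of MIR210HG, which fell, to set side by side what the starts of hosts with opposite courses hold. They are RefSeq windows of GRCh38.p14 from 250 bases before to 50 after an annotated start, written along the gene, with capitals for matches to any of 6 motifs searched on both strands. The motifs were the CArG box bound by SRF, the AP-1 site TGANTCA, the CRE core TGACG, the E-box CACGTG, the core ACGTG of the HIF site, which every E-box also holds, and the TEAD site GGAATG. Positions are counted from the start, with bases before it negative. CARMN held an E-box at −81, as did 7.26% of 35116 windows of all genes, and with it the HIF core, as did 21.4%. MIR22HG held a CRE core at −56 (24.6% of all windows) and a HIF core at −112, and MIR210HG a HIF core at −170. No member window held a CArG box, and 1.29% of all windows did. Of the 18 windows of the 8 hosts, 3 held a CRE core, 4 a HIF core, 1 an E-box, 1 an AP-1 site (MIR4435-2HG; 7.71% of all windows) and 1 a TEAD site (MIR100HG; 14.0%). A match is only a run of letters, and no binding was measured.
CARMN (chr5:149406595-149406894, plus strand): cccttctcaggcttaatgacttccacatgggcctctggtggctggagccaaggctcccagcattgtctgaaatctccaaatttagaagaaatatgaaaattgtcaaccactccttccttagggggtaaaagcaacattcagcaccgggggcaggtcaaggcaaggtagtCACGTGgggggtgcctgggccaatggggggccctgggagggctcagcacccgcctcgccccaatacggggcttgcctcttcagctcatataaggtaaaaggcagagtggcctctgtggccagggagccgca
MIR22HG (chr17:1716161-1716460, minus strand): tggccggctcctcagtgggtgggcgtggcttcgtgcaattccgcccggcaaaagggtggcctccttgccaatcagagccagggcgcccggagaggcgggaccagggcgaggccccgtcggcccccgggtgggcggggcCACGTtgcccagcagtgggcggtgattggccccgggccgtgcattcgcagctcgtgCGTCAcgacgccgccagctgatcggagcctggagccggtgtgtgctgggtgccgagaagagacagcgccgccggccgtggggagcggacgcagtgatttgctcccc
MIR210HG (chr11:568408-568707, minus strand): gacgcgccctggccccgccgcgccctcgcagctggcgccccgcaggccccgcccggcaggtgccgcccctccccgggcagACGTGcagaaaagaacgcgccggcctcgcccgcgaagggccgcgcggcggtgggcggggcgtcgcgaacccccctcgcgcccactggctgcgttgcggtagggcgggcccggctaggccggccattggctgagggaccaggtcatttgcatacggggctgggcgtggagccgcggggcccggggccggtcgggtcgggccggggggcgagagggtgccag

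MIR17HG, the host of the miR-17-92 cluster and a known target of MYC and E2F factors, had its lowest counts in the first hour and was higher at 400 min. Its normalized count was 159, 129, 119, 87.4 and 76.2 in the 5 libraries from 0 to 40 min, then 186 at 50 min and 312 at 60 min. The 36 libraries from 50 min on lay between 186 and 692 (median 428), above all 5 earlier ones. The rise was not steady: the mean was 474 (SD 45.1) in the 7 libraries from 140 to 200 min, 436 (SD 37.4) in the 10 from 210 to 300 min and 509 (SD 81.5) in the 10 from 310 min on, and the midpoint was passed at 126 min (117 to 130). The fitted change at 30 min was −0.80 (SE 0.21, adjusted p = 0.016 in edgeR), short of the threshold, and it was 0.68 (SE 0.16, adjusted p = 0.0032 in edgeR) at 60 min, 1.05 (SE 0.16) at 120 min and 1.96 (SE 0.17, adjusted p = 5.2e-14 in edgeR) at 400 min. From 120 to 400 min it rose by a further 0.91 (SE 0.09, adjusted p = 8.5e-12 in edgeR), or by 0.44 with 5 degrees of freedom. The early value depended on the fit: with evenly spaced knots the changes at 30, 60 and 120 min were 0.56, 1.07 and 1.83, whereas DESeq2, TMM scaling and the fit without the 4 libraries farthest from the curves called it lower, with −0.80, −0.84 and −0.91. The rise at 60 min was not called without the 60 min library (0.57), with library sizes (0.64), spike-ins (0.45), 5 degrees of freedom (0.45), every second time point (0.68) or without the 0 min library (0.40), and without that library the changes at 120, 240 and 400 min, 0.77, 1.17 and 1.68, were not called either.

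MIR100HG, the host of miR-100, let-7a-2 and miR-125b-1, rose to the end of the course. In the 4 libraries up to 30 min it had between 1614 and 2220 normalized counts, in the 5 from 40 to 80 min between 2437 and 2914, and in the 32 from 90 min on between 3604 and 7631, with the highest count at 400 min. These ranges did not overlap. In the fit its change was −0.20 (SE 0.17) at 30 min and 0.28 (SE 0.15) at 60 min, neither called, then 0.87 (SE 0.15, adjusted p = 2.1e-05 in edgeR) at 120 min and 1.68 (SE 0.17, adjusted p = 5.1e-11 in edgeR) at 400 min. Neighboring libraries could differ late in the course: the count was 3939 at 230 min and 3927 at 240 min, but 5459 at 250 min and 4464 at 300 min. The rise at 120 min was not called with spike-ins (0.88) or without the 0 min library (0.97), and without that library the rise at 240 min was not called either.

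MIR31HG, the host of miR-31, was the last to be called, at 240 min. The 15 libraries from 0 to 140 min lay between 206 and 268 normalized counts, with a median of 247. The 26 libraries from 150 min on lay between 310.2 and 703, with a median of 541 and the highest count at 350 min, and no library of either block overlapped with the other. Fitted log2 changes were 0.11 (SE 0.16), −0.07 (SE 0.14) and 0.14 (SE 0.14) at 30, 60 and 120 min, none called, and the 95% interval at 120 min ran from −0.13 to 0.42. It was 0.98 (SE 0.13) at 240 min and 1.37 (SE 0.14, adjusted p = 1.8e-11 in edgeR) at 400 min, and 1.23 (SE 0.09, adjusted p = 1.4e-16 in edgeR) from 120 to 400 min. The running mean passed the midpoint of the rise at 245 min (239 to 248), later than the others in the full set of libraries, where MIR100HG had 202 min (148 to 242). Without the 0 min library the change at 240 min was 1.17 and not called.

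MIR4435-2HG, which carries miR-4435-2 and shares long near-identical stretches with CYTOR, rose with the least scatter about its curve (residual SD 0.04 on the log2 scale). Its normalized count lay between 2000.1 and 2211 in the 5 libraries from 0 to 40 min, between 2441 and 2802 in the 6 from 50 to 100 min, and between 5012 and 5625 in the 11 from 300 min on, with the midpoint at 168 min. It changed by 0.12 (SE 0.06) at 30 min, not called, 0.38 (SE 0.06, adjusted p = 1.9e-06 in edgeR) at 60 min and 1.45 (SE 0.06, adjusted p = 9.9e-25 in edgeR) at 400 min. With spike-ins the changes at 60 and 120 min were 0.14 and 0.61 and were not called, and without the 0 min library that at 60 min was 0.34 and not called. The longest match between transcripts of the pair ran over 6657 bases at 99.1% identity, and 103 of 108 annotated MIR4435-2HG transcripts had a match to CYTOR of at least 95% identity. Reads that map to both were counted for both, so the value of either gene holds reads of the other. CYTOR itself, a lncRNA linked to the cytoskeleton, rose by 0.75 (SE 0.06) at 60 min and 2.01 (SE 0.06, adjusted p = 4.9e-29 in edgeR) at 400 min. The ratio of the MIR4435-2HG count to the CYTOR count started at 1.18, reached its lowest value of 0.692 at 220 min and ended at 0.826, so the counts of the pair did not change in proportion.

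**Figure D2:**
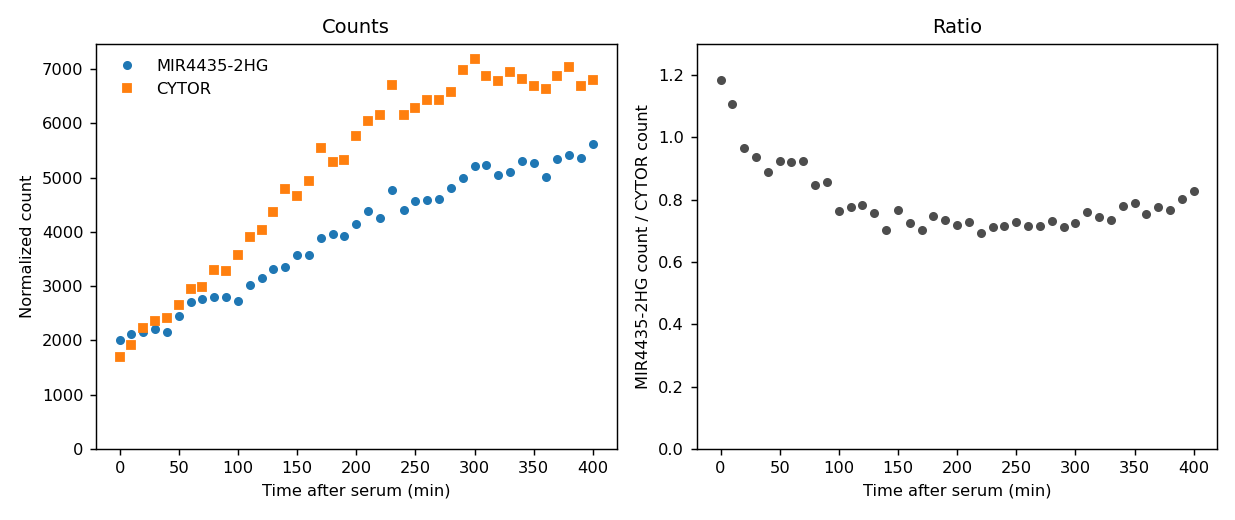
Left, normalized counts (linear axis) of MIR4435-2HG and the closely related CYTOR against time after serum (min). Right, the ratio of the former to the latter in each library, highest at 0 min (1.18) and lowest at 220 min (0.692).

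MIR99AHG, which hosts miR-99a, let-7c and miR-125b-2, fell as its counterpart MIR100HG rose. It had 311 normalized counts at 0 min, its highest value, and between 149 and 228 (median 191) in the 14 libraries from 10 to 140 min. In the 26 libraries from 150 min on it lay between 67.7 (300 min) and 157 (median 107), so the late block overlapped with the lowest of the middle one. The midpoint was passed at 152 min, but at 15.6 min on the fitted curve and 66.7 min with spike-ins, so it is not well placed. In log2 terms it changed by −0.61 (SE 0.21) at 30 min and −0.63 (SE 0.18, adjusted p = 0.016 in edgeR) at 60 min, neither called, then −0.63 (SE 0.18, adjusted p = 0.0051 in edgeR) at 120 min and −1.77 (SE 0.20, adjusted p = 1.3e-10 in edgeR) at 400 min. The comparisons with the start rest on the single 0 min library. Without it the change was −0.01 at 120 min, −0.82 at 240 min and −1.15 at 400 min, none called, whereas the fall from 120 to 400 min was −1.15 with it (SE 0.15, adjusted p = 6.8e-09 in edgeR) and −1.14 without, called both times. The call at 120 min was also lost without the 110 min library (−0.59), without the 120 min library (−0.60), with every second time point (−0.68), with spike-ins (−0.63) and with evenly spaced knots (−0.43). The opposite course of the genes that share 3 seeds can be read at 400 min, where MIR100HG had 7631 normalized counts against 2220 at the start and MIR99AHG 106 against 311. The difference between their changes was not tested as such, and their 95% intervals at 400 min lay on opposite sides of 0.

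MIR210HG, the host of miR-210, which is known as the microRNA most strongly induced by low oxygen through HIF, had the largest fall. It had between 197 and 233 normalized counts in the 4 libraries up to 30 min, between 152 and 174 in the 5 from 40 to 80 min, and between 18.0 and 37.8 (median 26.5) in the 12 from 290 min on. The libraries between these blocks had 119 at 90 min and 39.0 at 280 min, the first and last of them. The log2 change was −0.13 (SE 0.20) at 30 min and −0.43 (SE 0.17) at 60 min, neither called, −1.19 (SE 0.17, adjusted p = 1.7e-07 in edgeR) at 120 min, −2.41 (SE 0.16) at 240 min and −3.16 (SE 0.21, adjusted p = 2.2e-17 in edgeR) at 400 min. The running mean passed the midpoint of the fall at 94.9 min (93.2 to 101). Without the 0 min library the change at 120 min was −1.06 and not called, and at 400 min it was −3.03.

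**Figure D3:**
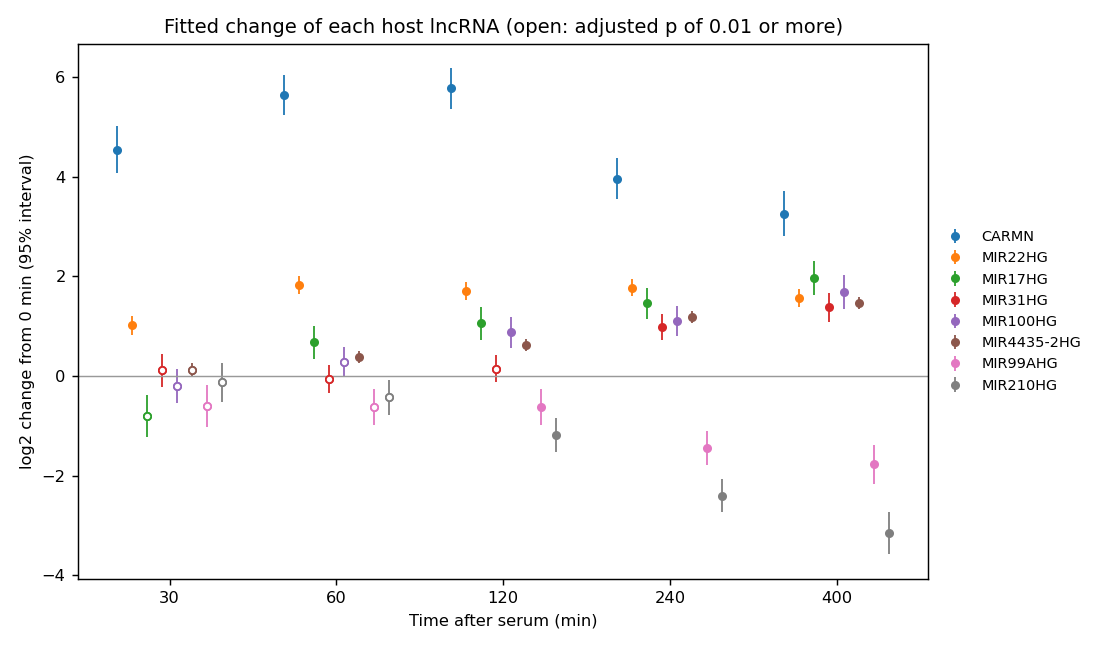
Fitted log2 change of each host lncRNA from 0 min, with its 95% interval, at 30, 60, 120, 240 and 400 min, where open points have an adjusted p of 0.01 or more. CARMN is the highest at each time in this fit, and MIR99AHG and MIR210HG are the only hosts below the line at 400 min (−1.77 and −3.16).

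The hairpins themselves could be followed for some hosts, since 14 of the 18 annotated ones passed the filter. GENCODE 44 places 11 of the 18 inside a host exon and 7 in an intron, while the counts were made on release 29, whose exons may differ and were not used here. Where the placement holds in both, a read over an exonic hairpin was counted for the hairpin and for the host, so those values are in part the same reads, and a read over an intronic hairpin comes from RNA that has not been spliced there or from the intron itself. Of the 14, 4 were higher after 60 min, 8 by 120 min and 9 at the end of the course, where 5.15%, 13.6% and 24.2% of all genes were. In edgeR none was lower at any of these times, at an unadjusted p below 0.05 either (0 of 14). Of all genes 1.23%, 6.75% and 22.4% were called lower at these times. The filter asked for more than 10 counts in at least 1 library and more than 2 in 3 consecutive ones. It left out the hairpins of MIR99AHG and MIR210HG, the hosts that fell. MIR143, MIR145, MIR20A, MIR19B1, MIR92A1, MIR31 and MIR4435-2 each had 13 or fewer counts from 0 to 40 min in total, so they passed through later libraries. The counts of higher and lower hairpins are thus shaped by the filter and are not a result about the hairpins as a whole. The MIR143 hairpin (exon, chr5:149428918-149429023) and the MIR145 hairpin (intron, chr5:149430646-149430733) had 10 and 12 counts in the 5 libraries from 0 to 40 min, 122 and 218 in the 7 from 50 to 110 min, and 33 and 36 in the 10 from 310 to 400 min. Both were at 0 in the 0 min library, so no fold is given, and both rose and declined within the same windows as CARMN. MIR22 (exon, chr17:1713903-1713987) had 97.5 normalized counts at the start and a highest value of 319 at 300 min, and it changed by 1.36 (SE 0.16) at 60 min and 1.29 (SE 0.16, adjusted p = 2.3e-09 in edgeR) at 400 min. Of the 6 hairpins of MIR17HG, all exonic, 5 were higher at 400 min and none was called at 60 min in edgeR, where 1 had an unadjusted p below 0.05, with 2.30 (SE 0.35) for MIR18A and 1.95 (SE 0.35) for MIR19A at 400 min, and MIR20A had 1.74 (SE 0.83, adjusted p = 0.071 in edgeR), not called.

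In 2 long hosts an intronic hairpin was called higher at a time when the exons were not. MIR31 (chr9:21512115-21512185), in an intron of MIR31HG, had 13 counts in the 5 libraries from 0 to 40 min, 88 in the 7 from 50 to 110 min, 245 in the 9 from 120 to 200 min, 298 in the 10 from 210 to 300 min and 192 in the 10 from 310 to 400 min. As pooled normalized counts, that is counts over the summed size factors, these are 3.09, 11.8, 25.8, 27.5 and 18.3. The exons of MIR31HG in the same windows gave 247, 230.3, 321, 480.3 and 614. At 120 min the hairpin was higher by 2.66 (SE 0.62, adjusted p = 0.00078 in edgeR), a time at which the change of the host exons was 0.14 and not called. At 400 min the hairpin changed by 1.99 (SE 0.69, adjusted p = 0.012 in edgeR), which was not called. MIR31 had 3.11 normalized counts in the 0 min library and passed the filter through later libraries. The size of its change and its call are shaped by that. MIR100 (chr11:122152229-122152308) was higher by 1.57 (SE 0.40, adjusted p = 0.0048 in edgeR) at 60 min, when the MIR100HG exons gave 0.28, and by 1.41 (SE 0.41) at 400 min, when the exons gave 1.68. The other intronic hairpins of this host were not called at 60 min, MIRLET7A2 with 0.59 (SE 0.44) and MIR125B1 with 0.18 (SE 0.30). MIR100 had 10.4 normalized counts in the single 0 min library, and the hairpin changes were not refitted without that library. MIR100 and MIRLET7A2 (chr11:122146522-122146593) were highest between 120 and 200 min, with 43.8 and 83.3 pooled normalized counts, and had 32.5 and 58.1 from 310 to 400 min, while MIR125B1 (chr11:122099757-122099844) was highest in that last window, with 78.4. The difference between hairpin and host was not tested. The 3 hairpins of MIR99AHG and that of MIR210HG were too sparse for the filter. In the 5 libraries up to 40 min and the 10 from 310 min on, MIR99A had 16 and 6 counts (3.80 and 0.573 pooled normalized counts), MIRLET7C 7 and 9 (1.66 and 0.860), MIR125B2 17 and 3 (4.04 and 0.287) and MIR210 14 and 5 (3.33 and 0.478). MIR4435-2 had 158 counts in all libraries together, and its change at 400 min was 0.46 (SE 0.99), not called.

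**Figure D4:**
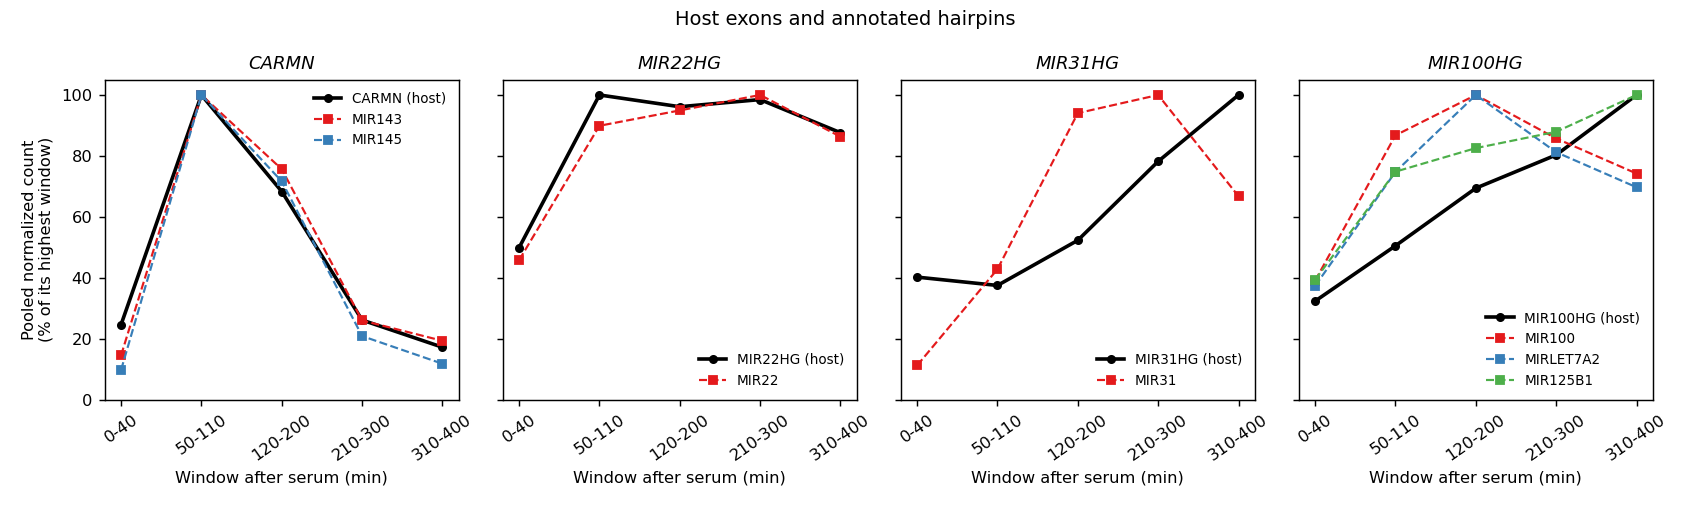
Pooled normalized count in 5 windows of time, as a percentage of the highest window of each gene, for the exons of a host (black) and its annotated hairpins (dashed). In CARMN the hairpins (10 and 12 counts in the first window) and host move together, and in MIR31HG the intronic hairpin is at 94.0% in the window from 120 to 200 min, when the host exons are at 52.3%.

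The study asked how lncRNAs relate to the protein-coding genes beside them, so the genes starting within 250 kb of each host were set beside it, at most 3 per host. MIR17HG and MIR4435-2HG had none that passed the filter, and the other hosts gave 14 neighbors. The correlation over the 41 libraries is a description, since the libraries follow each other in time and both genes are measured in the same ones. It was taken on exon counts of both genes, whereas the study compared reads from the first stretch of introns. The study reported that mature mRNA may mask when a gene is activated, so r here does not measure synchrony as the study did. Of the 14, 4 had r above 0.8 on log2 values and 7 were below 0. Beside each of the former stands the share of all protein-coding genes tested that had a lower r with the same host. For the neighbors below 0 this share was 0.341% for WDR81 and between 27.1% (AFAP1L1) and 48.7% (KLHL9) for the others. MTAP, an enzyme of methionine salvage whose start lies 243 kb from that of MIR31HG, had r = 0.97, more than 99.8% of all protein-coding genes, and changed by 0.10 (SE 0.09) at 60 min, 0.38 (SE 0.09) at 120 min and 2.18 (SE 0.10, adjusted p = 5.0e-23 in edgeR) at 400 min. IFNE, an interferon 77.6 kb downstream of the same start, had r = 0.83, more than 85.1% of protein-coding genes, and rose from 14.5 normalized counts to 115.9 at 290 min. It starts inside the span of MIR31HG on the same strand, so its reads cannot be told from those of unspliced MIR31HG RNA. UBASH3B, a phosphatase of signaling proteins 99.0 kb from MIR100HG, had r = 0.93, more than 95.2% of them, and changed by −0.04 (SE 0.08) at 60 min, 1.35 (SE 0.08) at 120 min and 2.97 (SE 0.09, adjusted p = 4.1e-30 in edgeR) at 400 min. LMNTD2, 7.72 kb from MIR210HG, had r = 0.90, more than 94.1% of them, and fell by 1.42 on the log2 scale (SE 0.19, adjusted p = 8.6e-09 in edgeR) at 400 min. The other neighbors of MIR210HG differed: PHRF1, 8.01 kb away, had r = −0.65 and was higher by 0.46 (SE 0.12) at 120 min and 0.40 (SE 0.13) at 400 min, and RASSF7, 8.05 kb away, had r = 0.58 and changed by −0.48 (SE 0.15) at 400 min. Of the 3 nearest tested genes of each early host none had r above 0.8, and genes farther off within the window were not set beside them. The nearest to CARMN, PCYOX1L, GRPEL2 and AFAP1L1, had r = 0.09, −0.24 and −0.27, and WDR81, TLCD2 and PRPF8 had −0.70, 0.35 and −0.03 with MIR22HG. USP25, the only one within reach of MIR99AHG, had −0.42, and KLHL9, 224 kb from MIR31HG and so nearer than MTAP, had −0.04 with that host.

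Outside the neighborhood, the genes with the most similar profiles were found by the highest r on log2 values over the 41 libraries, among genes with a mean of at least 100 normalized counts. For CARMN these were KLHL21 (0.97), the lncRNA GASAL1 (0.97) and ID1 (0.97), an inhibitor of bHLH transcription factors. MIR22HG ran most like NUAK2 (0.97), a kinase related to AMPK, GPR183 (0.97), an oxysterol receptor, and EMP1 (0.96). For MIR17HG the values were lower, 0.94 for PALLD, 0.93 for CRISPLD2 and 0.93 for VCL, and PALLD and VCL encode proteins of actin structures and adhesions. SH3RF2, GALNT18 and YARS1 had 0.98 with MIR31HG, and PLS3 (0.99), DCAF13 (0.99) and NAA50 (0.99) with MIR100HG. EIF4A1, a helicase of translation initiation, SRSF2, a splicing factor, and CCT2, a chaperonin subunit, had 0.99 with MIR4435-2HG. Among the hosts that fell, MIR99AHG ran most like WDR26, C21orf91 and SOS1 (0.96, 0.96 and 0.95) and MIR210HG like COQ8A, PNRC1 and ZMYM3 (0.98, 0.98 and 0.97).

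Other host lncRNAs did not share one direction. Of 80 further lncRNAs listed as microRNA hosts, 34 passed the filter, and at 60 min 4 were higher and 2 lower, where 3.48% of all lncRNAs tested were higher and 2.91% lower. MIR23AHG, which carries the miR-23a cluster, started at 1473 normalized counts, reached 12994 at 50 min and ended at 3333, with a log2 change of 3.48 (SE 0.18, adjusted p = 1.4e-17 in edgeR) at 60 min. MIR181A2HG, MIR503HG and MIR1915HG were higher by 1.37 (SE 0.33), 0.90 (SE 0.21) and 0.71 (SE 0.16), and MIR3142HG and FTX were lower, with changes of −1.66 (SE 0.40) and −0.48 (SE 0.12). At 400 min 4 were higher (MIR493HG, MIRLET7IHG, MIR23AHG and MIR222HG) and 16 lower, where 8.64% and 24.8% of all lncRNAs were, and the median change of the 34 was −0.63, against −0.44 over all lncRNAs and −0.00 over all genes tested. MIR29B2CHG, the host of miR-29b-2 and miR-29c, had the largest fall of them, −3.30 (SE 0.11, adjusted p = 5.6e-28 in edgeR) at 400 min. It had 688 normalized counts at 0 min, 977 at 40 min and 78.4 at 400 min. Of 18 protein-coding hosts none was called at 60 min in edgeR, where 5.15% of all genes were higher and 1.23% lower. At that time 1 was positive and 3 negative at an unadjusted p below 0.05. At 400 min 2 were higher (MEST and PANK2) and 6 lower, against 24.2% and 22.4% of all genes. The falls were led by CTDSP2, which carries miR-26a-2, with −2.07 (SE 0.07).

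The genes of the microRNA pathway moved in both directions. Of 20 that passed the filter, 2 were higher at 60 min, where 5.15% of all genes were. These were AGO2 and the helicase DDX5, by 0.46 (SE 0.08) and 0.32 (SE 0.08). At 400 min 9 were higher and 6 lower, with a median of 0.16, where 24.2% of all genes were higher and 22.4% lower. Among those called higher at 400 min were DGCR8 by 0.88 (SE 0.09), XPO5, which encodes exportin-5, by 0.99 (SE 0.08), its partner RAN by 1.68 (SE 0.06) and DICER1 by 0.77 (SE 0.21), and AGO2 was higher at that time as well. The silencing scaffold TNRC6B, AGO4 and DDX17, a helicase that works with Drosha as DDX5 does, were lower, with changes of −1.83 (SE 0.08), −1.17 (SE 0.12) and −0.63 (SE 0.06), and DROSHA itself was not called. Of 14 factors known to act on host genes that passed the filter, 5 were higher at 60 min (FOS, MYC, SRF, JUN and EPAS1), against 5.15% of all genes. None was lower in edgeR at that time, against 1.23% of all genes, while 1 was negative at an unadjusted p below 0.05. At 120 min 5 were higher and 2 lower, against 13.6% and 6.75% of all genes. At 400 min 6 were higher and 4 lower, against 24.2% and 22.4%. Those lower at 400 min were FOS with −2.72 (SE 0.18), MRTFB with −1.79 (SE 0.10), E2F2 with −0.99 (SE 0.29) and ARNT with −0.34 (SE 0.07). Among the 6 higher, MYOCD had 0 normalized counts at 0 min and a mean of 3.85, so no fold is given. MYC started at 734 normalized counts, reached 5948 at 80 min and ended at 4439, and its change was 2.91 (SE 0.15) at 60 min. SRF changed by 2.87 (SE 0.13) at 60 min. HIF1A was higher by 1.35 (SE 0.22, adjusted p = 2.4e-06 in edgeR) at 400 min, when MIR210HG had 29.4 normalized counts. Of 12 HIF target genes, 3 were higher at 60 min (KDM3A, ADM and SLC2A1), against 5.15% of all genes. At 400 min their median change was −0.41. Then 3 were higher (VEGFA, PFKFB4 and ADM) and 5 lower (EGLN3, KDM3A, NDRG1, BNIP3 and P4HA1), against 24.2% and 22.4% of all genes. EGLN3, a prolyl hydroxylase of HIF, had the largest of these falls, −1.11 (SE 0.07). None of these lists was compared with the genes outside it by a test.

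The genes lie as follows on GRCh38, by GENCODE 44. CARMN spans chr5:149406689-149432835 and MIR17HG chr13:91347686-91397592, both on the plus strand, as does MIR99AHG at chr21:15928296-16646364. On the minus strand are MIR22HG at chr17:1711447-1717174, MIR31HG at chr9:21380073-21559891, MIR100HG at chr11:122028325-122556721, MIR210HG at chr11:565657-568457 and MIR4435-2HG at chr2:111006015-111523376. The spans run from 2.80 kb for MIR210HG and 5.73 kb for MIR22HG to 528 kb for MIR100HG and 718 kb for MIR99AHG. Among other genes tested, BLID shares exon bases with MIR100HG on the same strand and the unnamed ENSG00000285016 with MIR4435-2HG, and reads over shared bases were counted for each.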

How the data were processed

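Total RNA of 41 libraries was depleted of rRNA and sequenced as stranded paired ends. Per the labels and the methods of the study, the authors trimmed reads with cutadapt 1.11, aligned them to GRCh38 with STAR 2.5.2a and counted fragments over GENCODE 29 exons with featureCounts on the reverse strand, counting multi-mapping and overlapping reads for every gene, which affects MIR4435-2HG and hairpins inside host exons. The deposited counts are whole reads per gene. The deposited normalized signal is the count divided by a DESeq2 1.24.0 size factor, which was also used here. Genes passing the filter on low counts (21629) were fitted with edgeR 4.0.16 in R 4.3.3, by robust quasi-likelihood, on a cubic spline basis (7 degrees of freedom over time, 33 residual). P-values were adjusted over all genes, with a threshold of 0.01. Each time point is 1 library, so p-values measure the scatter of neighboring libraries, which may be technical. Alternatives were TMM, library-size and spike-in scaling, no filter, other knots, 5 degrees of freedom, leaving out libraries, and DESeq2 1.42.0. Positions came from GENCODE 44. The members, lists and named genes (members, their hairpins, up to 3 neighbors within 250 kb, the 3 most alike, called list genes) were chosen with earlier results of these data known. Mature microRNAs and a list test were not analysed here.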

Additional observations from a re-analysis of the deposited data

How the results depend on the processing

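All 8 hosts passed the test of the whole course and that of autocorrelation under each alternative run, and no called change reversed its direction. The 0 min library mattered most: without it 32 of 48 changes kept their direction and side of the threshold, and the hosts called numbered 2 higher at 60 min, 3 higher and 0 lower at 120 min, 3 higher and 1 lower at 240 min and 1 lower at 400 min. With spike-in size factors, which moved the median change of all genes at 60 min from 0.01 to −0.22, 40 of 48 were kept, with 1 higher at 30 min, 2 higher at 60 min and 3 higher and 1 lower at 120 min. At 30 min 1 host was lower with TMM, DESeq2 and a threshold of 0.05, and 2 without the 4 farthest libraries. At 60 min 1 was lower without these libraries and at 0.05, and at 120 min 1 was lower with evenly spaced knots and every second time point. Leaving out each library in turn gave 0 to 1 lower at 30 and 60 min and 1 to 2 at 120 min. Uncalled changes turned sign for MIR17HG at 30 min (0.56) and MIR100HG at 30 min (0.21) with evenly spaced knots, for MIR100HG at 30 min (0.014) and MIR31HG at 60 min (0.0084) with 5 degrees of freedom, for MIR31HG (−0.037) and MIR4435-2HG (−0.0076) at 30 min with spike-ins, and without the 0 min library for MIR31HG at 60 min (0.12) and MIR99AHG (0.10) and MIR210HG (0.017) at 30 min. Midpoints with spike-ins were 46.6 min for CARMN (41.9 as reported), 48.1 for MIR22HG (34.0), 134 for MIR17HG (126), 219 for MIR31HG (245), 66.7 for MIR99AHG (152) and 200.3 for MIR4435-2HG (168), and on the fitted curve 139 for MIR17HG, 222 for MIR31HG and 15.6 for MIR99AHG. On normalized counts r was 0.20 for PCYOX1L, −0.54 for GRPEL2, −0.52 for AFAP1L1, −0.16 for KLHL9 and 0.80 for RASSF7. The cause of these shifts was not tested. No paired analysis was possible because each time point has 1 library. Depth limits the hairpins of MIR99AHG and MIR210HG, with 40 to 81 counts in all libraries.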
